A study of Homo sapiens with 6 samples.

Results

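The 10 genes described here encode the fibrinogen chains (FGG, FGA and FGB), 3 cytokines of the interleukin-6 family (IL6, IL11 and LIF), the receptor chains IL6ST and OSMR, the transcription factor STAT3, and its feedback inhibitor SOCS3. They were picked by name from the 23030 genes of the spike-in normalised table, with the difference between the groups in FGG already known, and all 10 were found there. T98G, an established human glioblastoma cell line, was transduced with lentivirus delivering either a control short hairpin RNA (shControl) or a hairpin against the kinase DYRK1A (shDYRK1A), and both groups underwent puromycin selection. Each group has 3 libraries, named 1A, 1B and 1C, and the shDYRK1A group rests on 1 hairpin in 1 cell line. A fixed number of Drosophila Kc167 cells was added to the T98G cells before RNA extraction, so that the fly reads set the scale between libraries. The methods of the study describe its experiments in general as independently repeated, while the labels do not say how these libraries relate to separate cultures, and p-values measure the spread between these libraries.

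Cytokines of the interleukin-6 family bind receptors that share IL6ST (gp130), and Janus kinases attached to the receptor then phosphorylate STAT3, which moves to the nucleus and turns on target genes. SOCS3 is one of those targets and shuts the receptor down again. Fibrinogen is built from alpha, beta and gamma chains encoded by FGA, FGB and FGG, is made mainly by hepatocytes, is raised by interleukin-6 during the acute phase response, and is cleaved by thrombin to form the fibrin clot.

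The fibrinogen genes lie side by side on chromosome 4 (GRCh38, GENCODE v29): FGB at chr4:154562956-154571086 on the plus strand, FGA at chr4:154583126-154590766 and FGG at chr4:154604134-154612967, both on the minus strand. The gaps between them are 12039 bp from FGB to FGA and 13367 bp from FGA to FGG. Their promoters are shown because these are the members with the highest fold changes. Each sequence is the 250 bases before the RefSeq start (GRCh38.p14), 5′ to 3′ on the strand of the gene. Capitals mark the interleukin-6 response element CTGGGAA or, in FGA, a match to the STAT motif TTCNNNGAA. The windows are chr4:154612657-154612906 for FGG, chr4:154590743-154590992 for FGA and chr4:154562730-154562979 for FGB. GENCODE places the FGG start further upstream, so that its longest FGG model covers the whole FGG window.
FGG: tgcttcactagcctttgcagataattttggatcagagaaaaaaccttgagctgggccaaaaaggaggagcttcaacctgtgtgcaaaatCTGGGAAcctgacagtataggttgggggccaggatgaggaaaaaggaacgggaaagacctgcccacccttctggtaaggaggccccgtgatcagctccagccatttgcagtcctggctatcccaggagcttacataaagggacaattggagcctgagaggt
FGA: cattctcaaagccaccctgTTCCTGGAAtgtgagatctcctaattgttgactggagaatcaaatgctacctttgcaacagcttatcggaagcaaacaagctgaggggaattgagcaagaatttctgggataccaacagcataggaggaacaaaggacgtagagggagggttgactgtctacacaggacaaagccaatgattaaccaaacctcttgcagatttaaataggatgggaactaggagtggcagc
FGB: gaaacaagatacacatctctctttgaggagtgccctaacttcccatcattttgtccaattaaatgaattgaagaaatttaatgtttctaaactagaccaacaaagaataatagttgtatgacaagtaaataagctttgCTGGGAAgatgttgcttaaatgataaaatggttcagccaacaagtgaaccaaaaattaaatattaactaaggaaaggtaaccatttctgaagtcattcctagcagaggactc

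CTGGGAA was found in 4 of the 9 member promoters in the RefSeq table, which has no entry for LIF, against 9.3% of all 27305 promoters searched on both strands. It lay 161 to 155 bases before the start of FGG and 112 to 106 bases before that of FGB. On the opposite strand it lay 240 to 234 bases before OSMR and 185 to 179 bases before SOCS3, in each case sharing 1 base with a match to the NF-kB motif. The STAT motif occurred in FGA alone among the 9 windows, 231 to 223 bases before the start, and in 6.78% of all promoters. All distances are from the RefSeq start. The SOCS3 window (chr17:78360926-78361175, minus strand) lies wholly upstream of the GENCODE start of SOCS3 at 78360077. Bases next to that GENCODE start were therefore not searched. An NF-kB motif that begins with GGG and ends with CC matched 6 of the 9 members and 53.7% of all promoters. The AP-1 motif TGANTCA matched IL11 alone, 96 to 90 bases before the start, against 6.6% of all promoters. The palindromic motif associated with DYRK1A was in none of the 9 windows and in 0.41% of all promoters.

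The libraries held between 33708297 and 42154438 reads assigned to genes. Levels below are raw counts divided by the spike-in size factor of the library, called normalised counts. DYRK1A itself stood at 2119 ± 194 normalised counts in shControl and 1274 ± 213 in shDYRK1A (SD, n = 3), a log2 fold change of -0.73 ± 0.15 (SE) on the spike-in scale and of -0.34 ± 0.06 with TMM. In CPM it went from 46.7 ± 0.465 to 37.6 ± 3.41. The median gene of the 9697 that passed the filter on low values (a mean above 10 CPM, which scale each library to the same total of gene counts) had a log2 fold change of -0.40 on the spike-in scale. After TMM scaling, which assumes that the typical human gene does not change, the median was 0.00. Values on both scales are therefore given for each member. In RNA from bulk cells, a lower level per cell and fewer cells of a kind cannot be told apart. Of the astroglial markers, VIM was high at 87884 ± 10566 and 53493 ± 2591 normalised counts, while S100B and AQP4 had 0 counts in every library and GFAP had 9 raw counts in all.

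FGG, the gamma chain, was the member with the largest fold change. Its normalised counts in the 3 shControl libraries came to 797, 885 and 817, whereas the shDYRK1A libraries had 2854, 2795 and 2539. Every shDYRK1A library lay far above every shControl library, and the spread within each group was narrow. The means were 833 ± 46.1 and 2729 ± 168 (SD, n = 3), a 3.28-fold higher level in shDYRK1A. The log2 fold change was 1.71 ± 0.15 (SE) on the spike-in scale and 2.11 with TMM, and it ran from 1.68 to 1.76 when each library was left out in turn. In CPM, which use no spike-in, the level of FGG went from 18.5 ± 1.89 to 81.2 ± 7.25. FGG ranked 3 of 9697 by log2 fold change, behind the collagenase MMP1 at 2.08 and ANKFN1 at 1.89, and ahead of the stromelysin MMP3 at 1.66 and the collagen COL8A1 at 1.34. In the wider fit over 17530 genes, which takes in many genes of low count, FGG ranked 36, FGB 44 and FGA 72.

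FGA and FGB, the alpha and beta chains, were higher in the shDYRK1A libraries too, from levels too low to pass the filter, and their folds come from a wider fit over 17530 genes (median log2 fold change -0.37). FGA had 26, 15 and 22 raw counts in the shControl libraries and 56, 62 and 81 in the shDYRK1A libraries. In normalised counts these are 31.7, 17.0 and 21.4 against 52.9, 57.4 and 66.7, so the groups did not overlap. The log2 fold change was 1.35 ± 0.32 (SE), and 1.72 with TMM. FGB had 9, 6 and 4 raw counts against 26, 27 and 22, the fewest of the 10 genes in shControl. In normalised counts they were 10.96, 6.81 and 3.89 against 24.6, 25.0 and 18.1, again without overlap. The log2 fold change of FGB was 1.66 ± 0.48, and 2.03 with TMM. With so few counts the range over left-out libraries was wide, from 1.17 to 1.61 for FGA and from 1.34 to 2.07 for FGB. The shDYRK1A means were 2.53-fold higher for FGA and 3.13-fold higher for FGB.

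The chains were far from equal in level. Per kilobase of exon, FGA stood at 2.58 ± 0.947% of FGG in shControl and 1.98 ± 0.365% in shDYRK1A, and FGB at 1.16 ± 0.608% and 1.09 ± 0.128% (SD, n = 3). Both ratios overlapped between the groups, and the FGB to FGG ratio of single libraries ran from 0.634 to 1.83%.

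**Figure D1:**
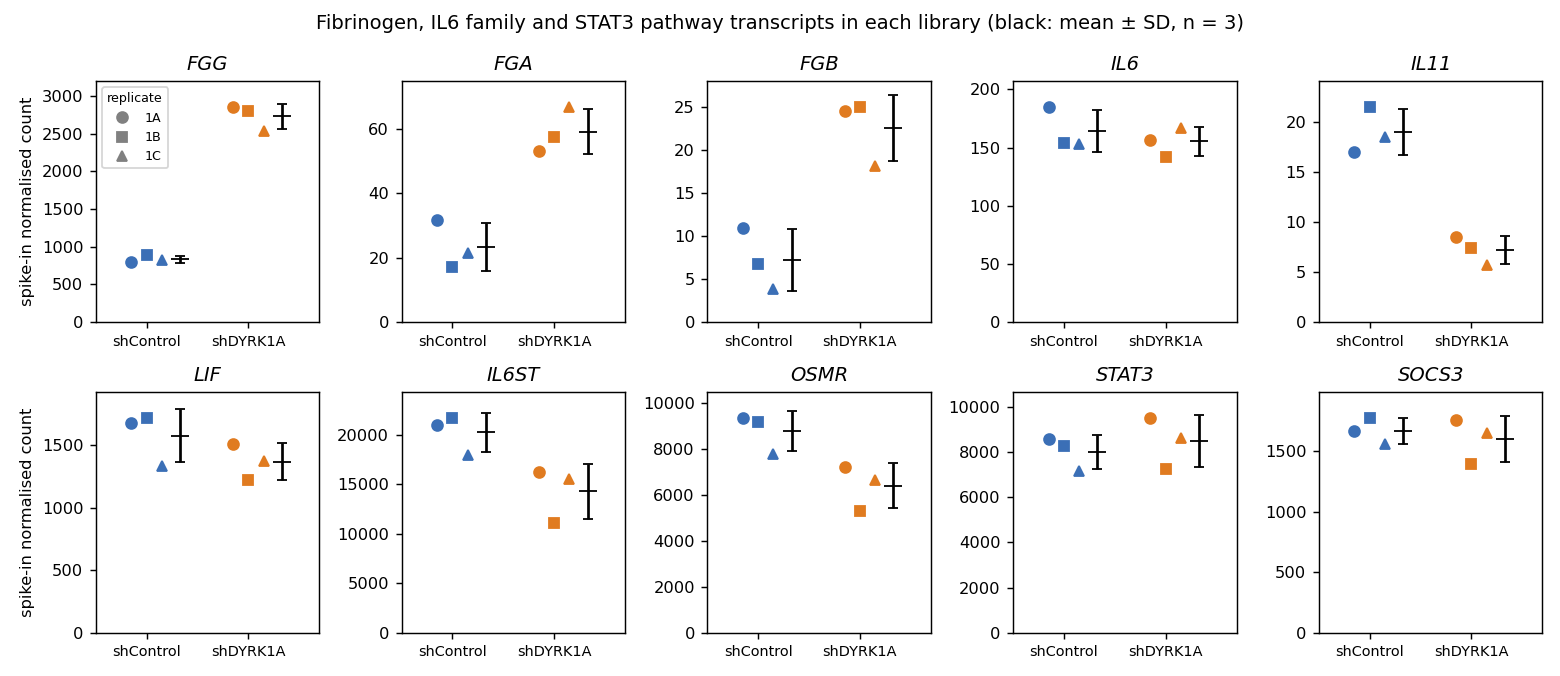
Spike-in normalised counts of the 10 genes in each library (circle 1A, square 1B, triangle 1C), with shControl in blue, shDYRK1A in orange and the mean ± SD in black; each panel has its own linear axis from 0. FGG, FGA and FGB are higher in every shDYRK1A library, IL11, IL6ST and OSMR are lower in every one, and the other 4 genes overlap.

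Genes on both sides of the fibrinogen cluster, near and far, were examined from a list of 12 neighbours. The 3 that passed the filter were all lower in shDYRK1A by edgeR's quasi-likelihood test, as were 63.4% of all 9697 genes. All 3 lie on the FGB side. The midpoints of PLRG1, MND1 and TRIM2 are at -70.2, -1233 and -1367 kb from the FGG start, negative towards FGB. PLRG1, a spliceosome component and the gene next to FGB, had a log2 fold change of -0.50 ± 0.14 (SE, adjusted p = 0.000807). MND1, a meiotic recombination factor, stood at -0.87 (adjusted p = 8.25e-07) and the ubiquitin ligase gene TRIM2 at -0.40 (adjusted p = 0.0215). With TMM, MND1 alone of the 3 stayed past the threshold, at -0.46, where 28.6% of all genes were lower. TRIM2 lost its call in 4 of the 6 fits that leave out 1 library (all but those without either shControl 1C or shDYRK1A 1A), with an adjusted p of up to 0.188. On the other side of FGG the nearest listed gene, LRAT, had 2 raw counts in all 6 libraries together. No listed gene on that side passed the filter. In a wider fit that keeps genes of lower count, MAP9 was at -0.21 ± 0.19 (SE) and GUCY1A1 at 0.16 ± 0.19 there.

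**Figure D2:**
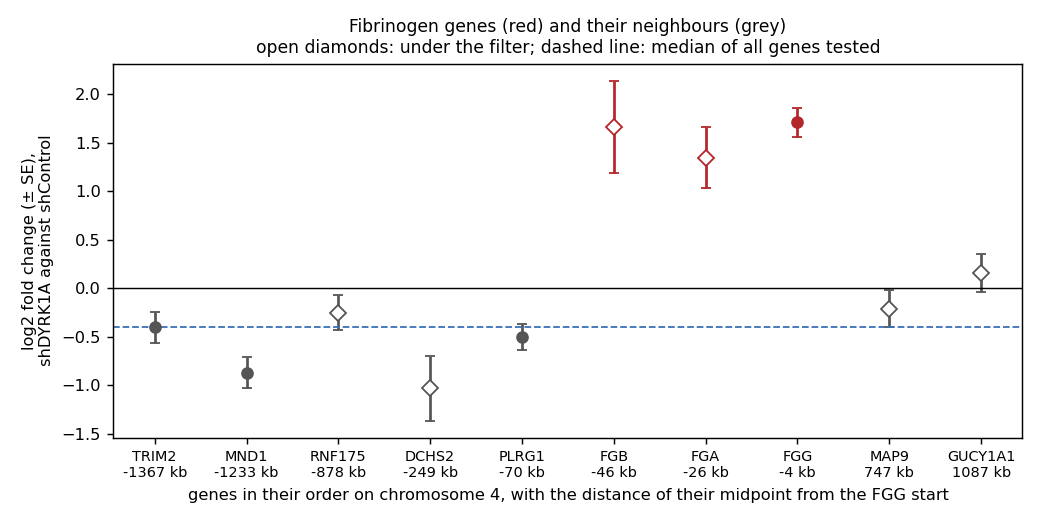
Log2 fold change (± SE) of the fibrinogen genes in red and of the listed neighbours with a value in grey, in their order along chromosome 4; open diamonds are genes under the filter on low values and the dashed line is the median of all genes tested. The 3 fibrinogen genes sit between 1.35 and 1.71, and PLRG1, the neighbour closest to FGB, sits at -0.50.

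Among the ligands, IL6 was at similar normalised counts in both groups, IL11 was lower in shDYRK1A and LIF overlapped. IL6, the founding cytokine of the family, had 185, 154 and 153 normalised counts in shControl and 157, 142 and 167 in shDYRK1A. The groups overlapped, and the log2 fold change was -0.08 ± 0.20 (SE), turning to 0.30 with TMM. IL6 and IL11 were under the filter, so their folds come from the wider fit over 17530 genes (median log2 fold change -0.37). In CPM the shDYRK1A libraries lay above the shControl libraries (3.63 ± 0.349 and 4.61 ± 0.375). The annotation puts 20.7% of IL6 exon bases opposite exons of other genes such as STEAP1B, and the strand setting of the count is not given in the sources used here.

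IL11, a cytokine that also signals through IL6ST, had only 14, 19 and 19 raw counts in shControl and 9, 8 and 7 in shDYRK1A. The normalised counts were 17.0, 21.6 and 18.5 against 8.51, 7.41 and 5.77. Every shDYRK1A library was below every shControl library, by normalised count and by CPM. The log2 fold change was -1.39 ± 0.48 (SE), and -1.03 with TMM.

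LIF, which signals through LIFR and IL6ST, was the most abundant of the 3 ligands. It had 1673, 1719 and 1335 normalised counts in shControl against 1510.4, 1217 and 1369.8 in shDYRK1A. The groups overlapped on this scale, with a log2 fold change of -0.21 ± 0.15 that became 0.20 with TMM. In CPM the groups did not overlap, at 34.7 ± 1.34 and 40.4 ± 1.26. For LIF, 6.73% of exon bases lie opposite other annotated exons.

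Both receptor chains were lower in shDYRK1A, by about as much as the median gene. IL6ST, the shared signalling chain, had 21019, 21750.2 and 17989 normalised counts in shControl and 16257, 11092 and 15551 in shDYRK1A. The lowest value was shDYRK1A 1B, and the groups did not overlap. The log2 fold change of IL6ST was -0.50 ± 0.13 (SE), -0.11 with TMM, and -0.35 without shDYRK1A 1B. In CPM the groups overlapped, with shDYRK1A 1B at 355 CPM and the other 5 libraries from 437 to 467.

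OSMR, which pairs with IL6ST to bind oncostatin M, had 9386, 9204 and 7815 normalised counts in shControl and 7244, 5332 and 6649.6 in shDYRK1A. Again shDYRK1A 1B was lowest and the groups did not overlap. The log2 fold change was -0.46 ± 0.13, -0.06 with TMM, and -0.34 without shDYRK1A 1B. In CPM the groups overlapped, with 171 CPM in shDYRK1A 1B and 192 to 199.6 CPM elsewhere. DYRK1A was also lowest in shDYRK1A 1B, at 33.8 CPM, against 40.4 and 38.6 in the other libraries of that group. Of all libraries, shDYRK1A 1B also had the fewest reads assigned to genes (33708297) and the most unmapped reads (15.6%). Whether these traits are linked was not tested.

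STAT3 and SOCS3 differed little on the spike-in scale. STAT3 had 8580.2, 8248 and 7138 normalised counts in shControl and 9520.2, 7238 and 8635 in shDYRK1A. The groups overlapped, and the log2 fold change of 0.08 ± 0.13 (SE) became -0.01 without shDYRK1A 1A. With TMM it was 0.48, and in CPM the groups stood apart at 176 ± 3.33 and 250.2 ± 16.0. SOCS3 had 1664, 1778 and 1559 normalised counts against 1762, 1393 and 1647. These overlapped too, with a log2 fold change of -0.06 ± 0.15 that became 0.03 without shDYRK1A 1B and 0.34 with TMM. In CPM, SOCS3 went from 36.9 ± 2.14 to 47.4 ± 2.51 without overlap.

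**Figure D3:**
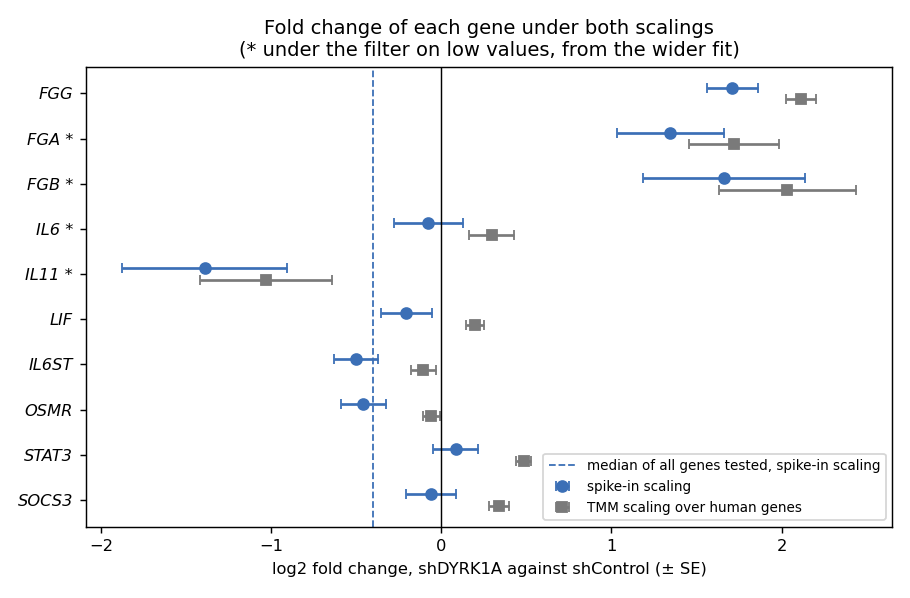
Log2 fold change (± SE) of each gene with spike-in scaling (blue circles) and with TMM scaling (grey squares); the dashed line is the median of all genes tested with spike-in scaling, -0.40. FGG, FGA and FGB lie to the right of 0 and IL11, IL6ST and OSMR to the left under both scalings, while IL6, LIF and SOCS3 change sign and STAT3 moves from 0.08 to 0.48.

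Because FGG and its companions were chosen with this contrast known, the counts of calls are given as a description. Of the 6 members past the filter, FGG was called higher at an adjusted p below 0.05, where 1.08% of all 9697 genes were. IL6ST and OSMR were called lower, as were 63.4% of all genes. In the wider fit, with all 10 members, the 3 fibrinogen genes were called higher (background 1.97%) and IL11, IL6ST and OSMR lower (background 44.2%). With TMM, FGG, LIF, STAT3 and SOCS3 were called higher, against 27.3% of all genes, while IL6ST and OSMR were not called and 28.6% of all genes were lower. The groups did not overlap for 3 members in the upward and 3 in the downward direction, against 3.69% and 48.2% of the 17530 genes. In CPM, 7 members were higher without overlap, the fibrinogen genes with IL6, LIF, STAT3 and SOCS3, against 29.2% of the 17530 genes, and IL11 was lower without overlap, against 21.3%.

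In the shControl libraries the members spanned a wide range of level per exon length. IL6ST was highest at 2180 ± 215 normalised counts per kilobase, followed by OSMR at 1227 ± 120, STAT3 at 907 ± 85.7, SOCS3 at 609.7 ± 40.1 and LIF at 397 ± 52.9. FGG came next at 231 ± 12.8 and IL6 at 79.3 ± 8.78 (SD, n = 3). IL11, FGA and FGB closed the order at 7.13, 5.91 and 2.67. The one pair of neighbours in this order whose libraries overlapped was IL11 and FGA. In shDYRK1A, FGG reached 758 ± 46.6 normalised counts per kilobase, above SOCS3 at 585 ± 69.2 and LIF at 344 ± 36.9. OSMR and STAT3 overlapped there, at 893 ± 136 and 961 ± 131.

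**Figure D4:**
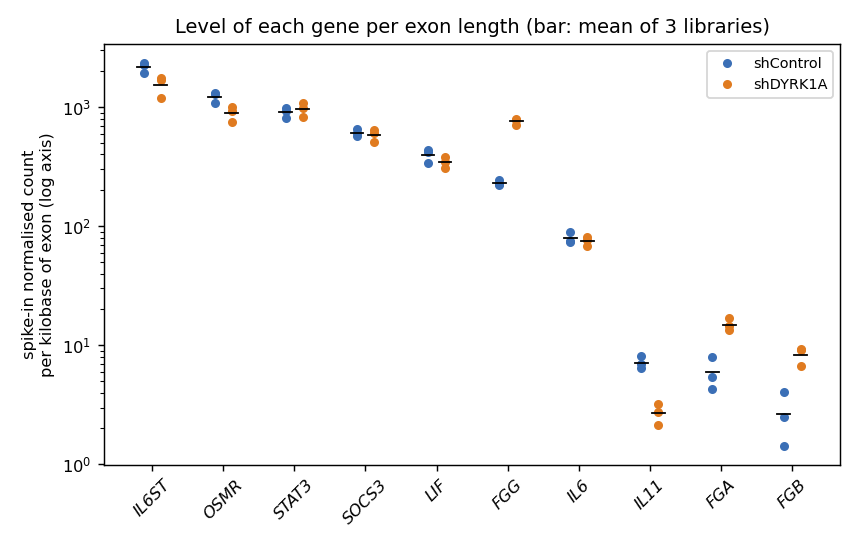
Spike-in normalised count per kilobase of exon on a log axis, with 1 point per library and a bar at the mean, genes ordered by their level in shControl. FGG moves from 231 in shControl to 758 in shDYRK1A, while FGA and FGB stay below 20 in both groups.

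The rest of the pathway was described with 7 lists of 101 genes, none of them members, of which 45 passed the filter. All lists, that of the cluster neighbours included, were chosen with earlier results of these data known. The adjusted p-values of their genes make no allowance for that choice. By edgeR's test at an adjusted p below 0.05, 25 of the 45 fell, 4 rose and 16 were not called. The median log2 fold change was -0.35 against -0.40 for all genes. Of the 4 that rose, 2 were acute phase plasma proteins and 2 coagulation genes. The lists of ligands, receptor chains, kinases and STATs, inhibitors and STAT3 targets each had 0 that rose. Over all genes tested, 63.4% were lower and 1.08% higher on this scale. With TMM 12 of the 45 fell and 16 rose, against 28.6% and 27.3% of all genes. The 25 became 16 when shControl 1A, shControl 1B or shDYRK1A 1C was left out.

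Among the other receptor chains, LIFR fell most. LIFR binds LIF and pairs with IL6ST, and it had 2658, 2465 and 2091 normalised counts in shControl against 1059.6, 698 and 946 in shDYRK1A. Its log2 fold change was -1.42 ± 0.15 (SE, adjusted p = 8.56e-19) and -1.02 with TMM (adjusted p = 1.25e-06). IL27RA, the other chain past the filter, was at -0.22 (adjusted p = 0.204), and with TMM its sign turned, to 0.19 (adjusted p = 0.0450).

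Of 6 Janus kinases and other STATs past the filter, 3 fell on the spike-in scale and 3 were not called, where 63.4% of all genes were lower. With TMM 2 of the 6 were called, both higher, where 27.3% of all genes were higher. STAT2 stood at -0.46 (adjusted p = 0.00299) and JAK1 at -0.36 (adjusted p = 0.0125), near the median gene. JAK1 was not called in the same 4 fits as TRIM2. With TMM neither STAT2 nor JAK1 was called, at -0.06 and 0.04.

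Of 11 inhibitors of the pathway past the filter 10 fell, with a median log2 fold change of -0.44, close to the -0.40 of all genes, of which 63.4% were lower. The largest was SOCS5, a relative of SOCS3, at -0.88 ± 0.14 (adjusted p = 1.86e-08). PIAS2, a SUMO ligase that binds STATs, stood at -0.80 and SOCS4 at -0.63. The phosphatase PTPN11 (SHP2), which docks on IL6ST, stood at -0.66 (adjusted p = 1.13e-05), and PTPN1, the most abundant per exon length, at -0.44. With TMM 5 of the 11 fell, against 28.6% of all genes. SOCS5 was among the 5, at -0.48, and PTPN1 was at -0.04.

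Of 16 STAT3 target genes past the filter, 7 fell and 9 were not called, with a median of -0.24. Over all genes 63.4% were lower and the median was -0.40. With TMM 5 of the 16 fell and 7 rose, against 28.6% and 27.3% of all genes. CCND1 (cyclin D1) went from 4868 ± 623 to 2587 ± 460.1 normalised counts, a log2 fold change of -0.91 (adjusted p = 1.92e-09) and of -0.51 with TMM. The kinase PIM1 stood at -0.66, the angiogenic factor VEGFA at -0.64 and the survival factor MCL1 at -0.54. With TMM these were -0.25, -0.24 and -0.14. TIMP1, an inhibitor of metalloproteinases and the most abundant per exon length, was at 0.16 (adjusted p = 0.265). With TMM it was at 0.58, 1 of the 7 that rose.

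Acute phase plasma proteins were mostly at low levels, as 12 of 19 stayed under 1 CPM in every library and 3 passed the filter. Complement C3 had 2016, 2169 and 1788 normalised counts in shControl and 5137, 4315 and 4547 in shDYRK1A. It rose with a log2 fold change of 1.23 ± 0.14 (SE, adjusted p = 6.48e-16) and 1.63 with TMM. The protease inhibitor A2M rose by less, at 0.42 (adjusted p = 0.0161), and lost its call without shControl 1A, shControl 1B or shDYRK1A 1C. Ceruloplasmin (CP) was at 0.04 (adjusted p = 0.828) and, with TMM, at 0.43 (adjusted p = 4.5e-05). All 3 were thus called higher with TMM, where 27.3% of all genes were higher. The classical acute phase genes CRP, HP and SERPINA3 had 2 raw counts each over all 6 libraries.

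Of 22 genes of coagulation and fibrinolysis, 6 passed the filter, of which 3 fell and 2 rose, against 63.4% and 1.08% of all genes. With TMM 1 fell and 3 rose, against 28.6% and 27.3% of all genes. F3 (tissue factor), which starts the clotting cascade, fell with a log2 fold change of -1.10 ± 0.15 (adjusted p = 3.3e-11). Its inhibitor TFPI stood at -0.46 (adjusted p = 0.00244) and was not called with TMM, at -0.06. TFPI2, a related protease inhibitor, rose at 0.47 (adjusted p = 0.00164), and PROS1 (protein S), an anticoagulant cofactor, rose at 0.59 (adjusted p = 0.000876).

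**Figure D5:**
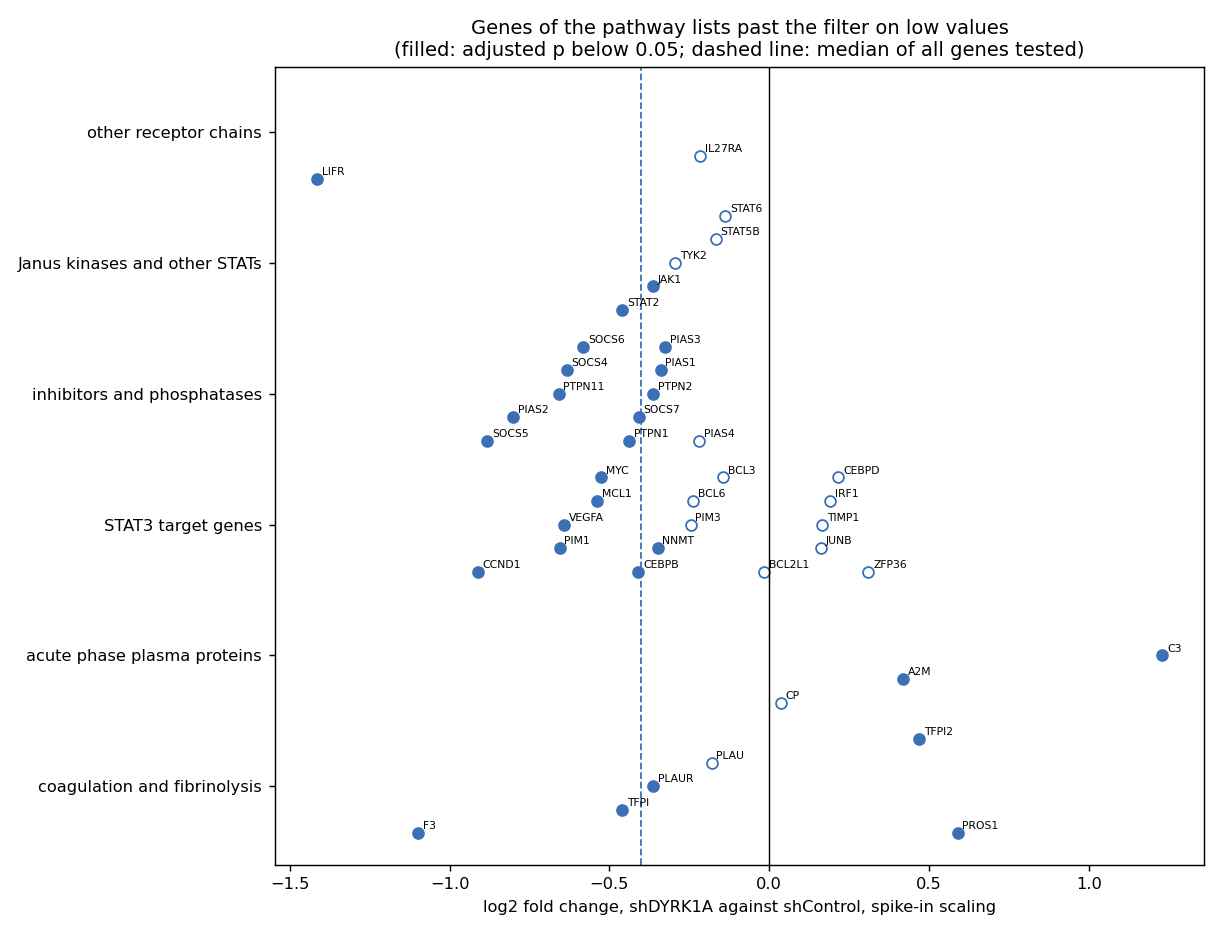
Log2 fold change with spike-in scaling of the genes of the lists that passed the filter and are reported here, 1 row per list with points spread vertically for legibility; filled points have an adjusted p below 0.05 and the dashed line is the median of all genes tested. LIFR at -1.42 and F3 at -1.10 lie farthest to the left, and C3 at 1.23 farthest to the right.

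Since fibrinogen is a hepatocyte product, 14 hepatocyte markers were examined beside it. Of these, 11 stayed under 1 CPM in every library, APOA2, APOC3 and TTR had 0 counts, and ALB (albumin) had 26 raw counts in all. HNF4A, a transcription factor of hepatocyte identity, had 5 raw counts. The summed level of the list was 3710 to 4170 normalised counts in shControl and 2758 to 3564 in shDYRK1A. Most of that sum was CPS1, a urea cycle enzyme, whose log2 fold change was -0.37, near the median gene, and 0.03 with TMM. Of the 2 markers past the filter, 1 (CPS1) was called lower and 0 higher, against 63.4% and 1.08% of all genes. CPS1 was not called in the same 4 fits as TRIM2. With TMM 0 were lower and 1, not CPS1, was higher, against 28.6% and 27.3% of all genes.

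Across the 6 libraries, the genes whose log2 normalised counts followed FGG most closely were CBLN2, a synaptic protein (Pearson r = 0.992), the histone HIST1H2AC (0.991), MMP1 (0.990), C3 (0.988) and the chemokine CXCL16 (0.985). A coefficient above 0.95 was found for 22 of the other 9696 genes. FGA and FGB both gave 0.90, IL11 -0.94, OSMR -0.83 and IL6ST -0.80. LIF gave -0.55, IL6 -0.37, STAT3 0.27 and SOCS3 -0.25. These coefficients describe 6 libraries in 2 groups and mostly restate the difference between the groups, and all points share the spike-in scale.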

How the data were processed

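RNA from T98G cells was sequenced as stranded, paired-end mRNA libraries, 3 per group. The authors deposited raw gene counts for each library (58174 identifiers). A second deposited table holds the spike-in normalised signal for 23030 genes, each library's counts divided by 1 constant, which was used as its size factor. A last table, with the DESeq2 results of the authors (log2 fold changes, errors, p-values), was not used. The submitters' processing notes name STAR, DESeq2, hg38 and dm3, without role. The STAR version, annotation and strand setting are not given in the sources used here. Coordinates of 95.81% of genes equalled GENCODE v29. Per-sample columns without a match numbered 0. Summary lines took 8.44 to 15.6% (unmapped), 2.26 to 2.49% (multimapping), 3.66 to 4.81% (no feature) and 3.42 to 3.59% (ambiguous) of reads and were left out.

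Groups came from the sample titles. Raw counts were fitted with edgeR 4.0.16 (glmQLFit robust, glmQLFTest; R 4.3.3), after a filter of a mean above 10 CPM that left 9697 genes, with Benjamini-Hochberg adjustment over all of them. SE was obtained as the log2 fold change over the root of the F statistic. Genes of the lists were called at an adjusted p below 0.05, and totals over all genes also needed a log2 fold change past 0.7. Members under the filter took their folds from a fit over 17530 genes kept by filterByExpr. The fit was tested on simulated data. Alternatives were TMM, median of ratios, DESeq2 1.42.0, wider filters, a replicate block and leaving out each library.

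The members and lists were chosen with earlier results of these data known. The members' contrast and their calls are therefore a description, and the adjusted p-values of list genes make no allowance for that choice. Named list genes are up to 4 called genes of largest fold and the gene highest per exon length, plus all tested neighbours of the cluster, the 5 genes most like FGG and the 2 beside it on either side by fold. Some genes and motifs that these rules name are not reported here, though they stay in the counts. Promoters came from RefSeq, and motifs were searched on both strands with Python 3.11.15.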

Additional observations from a re-analysis of the deposited data

How the results depend on the processing

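The fold changes of FGG, FGA, FGB, IL11, IL6ST and OSMR kept their sign under every alternative run. Those of IL6, LIF and SOCS3 turned positive with TMM and with median of ratios. IL6 also did so without shControl 1A and SOCS3 without shDYRK1A 1B, and STAT3 turned negative without shDYRK1A 1A. Past a log2 fold change of 0.7 at an adjusted p below 0.05, 1386 of the 9697 genes were lower and 27 higher in shDYRK1A. These became 187 and 121 with TMM, 184 and 125 with median of ratios, 2468 and 224 over genes with at least 1 count, 2492 and 229 with filterByExpr, and 6145 and 105 with no fold threshold. DESeq2 gave the same 1386 and 27, which is no separate check, since every gene past 0.7 also passed the adjusted p in both tools, so the fold alone set the count. Leaving out each library gave 908 to 2093 lower and 16 to 32 higher. The lowest count of lower genes came without shDYRK1A 1B, and the highest without shControl 1C (2093) and shDYRK1A 1A (2083). The count of higher genes was 16 without shControl 1C. Of the 45 pathway genes tested, 25 were lower and 4 higher. These became 12 and 16 with either TMM or median of ratios, and 5 and 1 past 0.7. Without 1 library they were 16 to 28 and 3 to 4.

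The letters 1A, 1B and 1C did not meet the rule for pairing the libraries: deviations from the group means correlated at 0.15, 0.07 and 0.13, although every library correlated best with its own letter, a hint from the data and not from the design. With the letters as a replicate block, 1394 genes were lower and 28 higher, and the pathway lists stayed at 25 and 4. Depth limits FGA, FGB and IL11, with at most 81 raw counts in any library.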

Other observations

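Some listed genes under the filter, singled out after their values were seen, also differed in the wider fit of 17530 genes by edgeR's quasi-likelihood test. In that fit 44.2% of all genes were lower and 1.97% higher. Of the genes of the 7 pathway lists, 31 were lower and 5 higher there. CLCF1 (-0.60), IER3 (-0.63) and PIM2 (-0.56) were among the lower genes, at -0.22, -0.26 and -0.19 with TMM. The genes described next were higher. EBI3, a subunit of the cytokines IL-27 and IL-35, had 5, 0 and 6 raw counts in shControl and 20, 18 and 16 in shDYRK1A, a log2 fold change of 1.98 ± 0.56 (SE, adjusted p = 0.00194). CHI3L1, a secreted glycoprotein and mesenchymal glioblastoma marker, went from 196 ± 28.5 to 456 ± 48.9 normalised counts (SD, n = 3), a log2 fold change of 1.21 ± 0.18. The groups did not overlap for either EBI3 or CHI3L1, and with TMM the log2 fold changes were 2.33 and 1.58. CHI3L1 went the other way from the 3 genes called past the filter in its list of 11 astroglial and glioblastoma markers. Of the 4 genes of that list past the filter, 3 were lower and 0 higher, against 63.4% and 1.08% of all 9697 genes. With TMM 2 of the 4 were lower and 0 higher, against 28.6% and 27.3% of all genes. VIM, 1 of them, stood at -0.72, and at -0.31 with TMM.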
